A study of Arabidopsis thaliana with 18 samples.

Results

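The 41 genes described here belong to the cell cycle and DNA replication machinery of Arabidopsis thaliana, out of 32833 genes counted. They were chosen by locus: MCM2 to MCM7, PCNA1 and PCNA2, ORC1A, CDC6, CDT1A, the ribonucleotide reductase genes RNR1 and TSO2, 16 A-, B- and D-type cyclins, CDKA;1 and 4 B-type kinases, E2FA and E2FB, the inhibitors KRP1 and KRP2, KNOLLE and 2 Aurora kinases. By role, 14 were S-phase genes, 17 mitotic genes and 10 genes of G1 and its regulators. Poly-A RNA was taken from the hypocotyl, the stem of the seedling below its cotyledons, in 18 libraries. The 6 groups of 3 libraries were the wild type (WT) and the hy1 mutant, each at 0 h before light and after 12 h and 24 h of a shift from dark to light. HY1 encodes a haem oxygenase of phytochrome chromophore synthesis, and the labels do not name the hy1 allele. Titles call the WT libraries mock, and a treatment that differed along with genotype cannot be told apart from genotype. No dark-kept library of 12 h or 24 h is part of these data as analysed here, so that light cannot be told apart from elapsed time or age, and nothing in the labels says that replicates came from separate cultures, so p-values measure the spread between these libraries, which may be technical.

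A plant cell enters the division cycle in G1, where D-type cyclins with the kinase CDKA;1 act on the retinoblastoma-related protein and release E2F factors, which switch on genes for DNA replication. Replication origins are licensed by the origin recognition complex, CDC6 and CDT1, which load the ring of MCM2 to MCM7 proteins, the core of the replicative helicase. Genes of mitosis are switched on later by MYB factors that bind MSA elements, and KRP proteins inhibit the cyclin-dependent kinases. In a hypocotyl grown in the dark most growth is by cell elongation, and later divisions there include those that found adventitious roots.

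In WT 9 of 14 S-phase genes rose by 24 h of light, among them all 6 MCM genes, and 2 of 17 mitotic genes did, where 24.6% of all genes tested rose. In hy1 11 of 14 S-phase and 2 of 17 mitotic genes rose by 24 h, where 20.4% of all genes did. In the dark 9 of 14 S-phase genes and 4 of 17 mitotic genes were lower in hy1, where 12.4% of all genes were. The difference between the classes was not tested. Among regulators, the inhibitor gene KRP2 responded differently in the genotypes, rising in hy1 and not in WT. In bulk RNA, fewer cells of a type and less RNA per cell cannot be told apart.

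Promoter windows are shown for 5 MCM genes and 5 B-type cyclins that hold a motif of their class, as examples of the S-phase and mitotic genes compared here and not for how they changed. The 250 bases before each gene's start, read from RefSeq's TAIR10.1 genome, whose nuclear coordinates match the annotation of the count table for all 41 genes, were searched on both strands for the E2F words TTTCCCGC, TTTGGCGC, TTTCGCGC and TTTGCCGC and for the MSA core words CTAACGG and CCAACGG. An E2F word was found in 6 of 14 S-phase genes (MCM2 to MCM6 and ORC1A), in 0 of 17 mitotic genes and in 1 of 10 others (CYCD3;3), against 387 of 27442 protein-coding genes (1.41%). An MSA core word was found in 5 of 17 mitotic genes and in 0 of the other 24 genes, against 709 protein-coding genes (2.58%). A match describes letters in the window and is not evidence of binding. The windows of 60 bases below are written 5′ to 3′ on the strand of the gene, and capitals mark each match or its reverse complement. For the MCM genes they lie at chr1:16970154-16970213 (plus strand, MCM2), chr5:18773843-18773902 (minus, MCM3), chr2:7130731-7130790 (minus, MCM4), chr2:3527501-3527560 (minus, MCM5) and chr5:18010680-18010739 (minus, MCM6).
MCM2: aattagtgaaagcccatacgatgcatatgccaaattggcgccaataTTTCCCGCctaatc
MCM3: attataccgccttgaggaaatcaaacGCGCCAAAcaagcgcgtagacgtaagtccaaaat
MCM4: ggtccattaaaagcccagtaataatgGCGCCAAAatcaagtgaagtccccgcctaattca
MCM5: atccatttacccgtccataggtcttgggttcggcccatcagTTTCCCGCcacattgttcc
MCM6: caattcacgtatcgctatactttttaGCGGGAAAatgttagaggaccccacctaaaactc

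The mitotic windows all belong to B-type cyclins, which drive entry into mitosis. They lie at chr4:17624337-17624396 (minus strand, CYCB1;1), chr5:1861704-1861763 (minus, CYCB1;2), chr3:3627282-3627341 (minus, CYCB1;3), chr2:7663941-7664000 (plus, CYCB2;1) and chr4:16901443-16901502 (plus, CYCB2;2). CYCB1;2 and CYCB1;3 each hold 2 matches within the window.
CYCB1;1: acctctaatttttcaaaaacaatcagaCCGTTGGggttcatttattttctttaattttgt
CYCB1;2: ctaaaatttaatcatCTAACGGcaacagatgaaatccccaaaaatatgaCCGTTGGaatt
CYCB1;3: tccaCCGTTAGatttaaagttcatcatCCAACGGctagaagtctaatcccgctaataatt
CYCB2;1: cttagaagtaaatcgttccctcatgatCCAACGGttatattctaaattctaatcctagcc
CYCB2;2: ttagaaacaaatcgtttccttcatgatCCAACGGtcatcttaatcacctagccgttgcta

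Expression levels are in CPM, a gene's count relative to its library's size, which allow 1 gene to be compared between libraries. Each change is a log2 value ± its standard error, estimated with edgeR on all 18 libraries over the 20955 genes that passed its filter, all 41 cell cycle genes among them. Totals ran from 38469946 to 59905064 counts per library. A gene rose, fell or was lower when its adjusted p was under 0.05 in that comparison. Replicates 2 and 3 of WT 12 h, with replicate 3 of WT 24 h, stood apart. Across genes, r was 0.944 to 0.969 in the pairs that set these 3 against the rest of their group and 0.974 to 0.990 in the remaining 14 pairs. At WT 12 h, replicates 2 and 3 correlated at 0.974 with each other and at 0.944 and 0.966 with replicate 1. These values do not tell which side of that group is unusual. Counts are also given without the 3 libraries, which leaves 1 WT 12 h library, assumed to vary like the other groups. Reads were counted without regard to strand, and 7 of the 41 genes share over 10% of their exon length with a gene on the opposite strand (AUR2 36.9%, KNOLLE 33.5%, ORC1A 31.9%, PCNA2 23.6%, AUR1 19.2%, CDKB1;2 18.3% and CDKB2;2 13.8%), whose reads cannot be told apart. Reads of near-identical relatives, such as PCNA1 and PCNA2, are uncertain too. Per length, as mean TPM over the 18 libraries, the level was highest for CDKA;1 (77.2), TSO2 (75.7) and RNR1 (66.4) and lowest for CYCB2;1 (3.11), CYCA2;1 (1.64) and ORC1A (0.616).

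**Figure D1:**
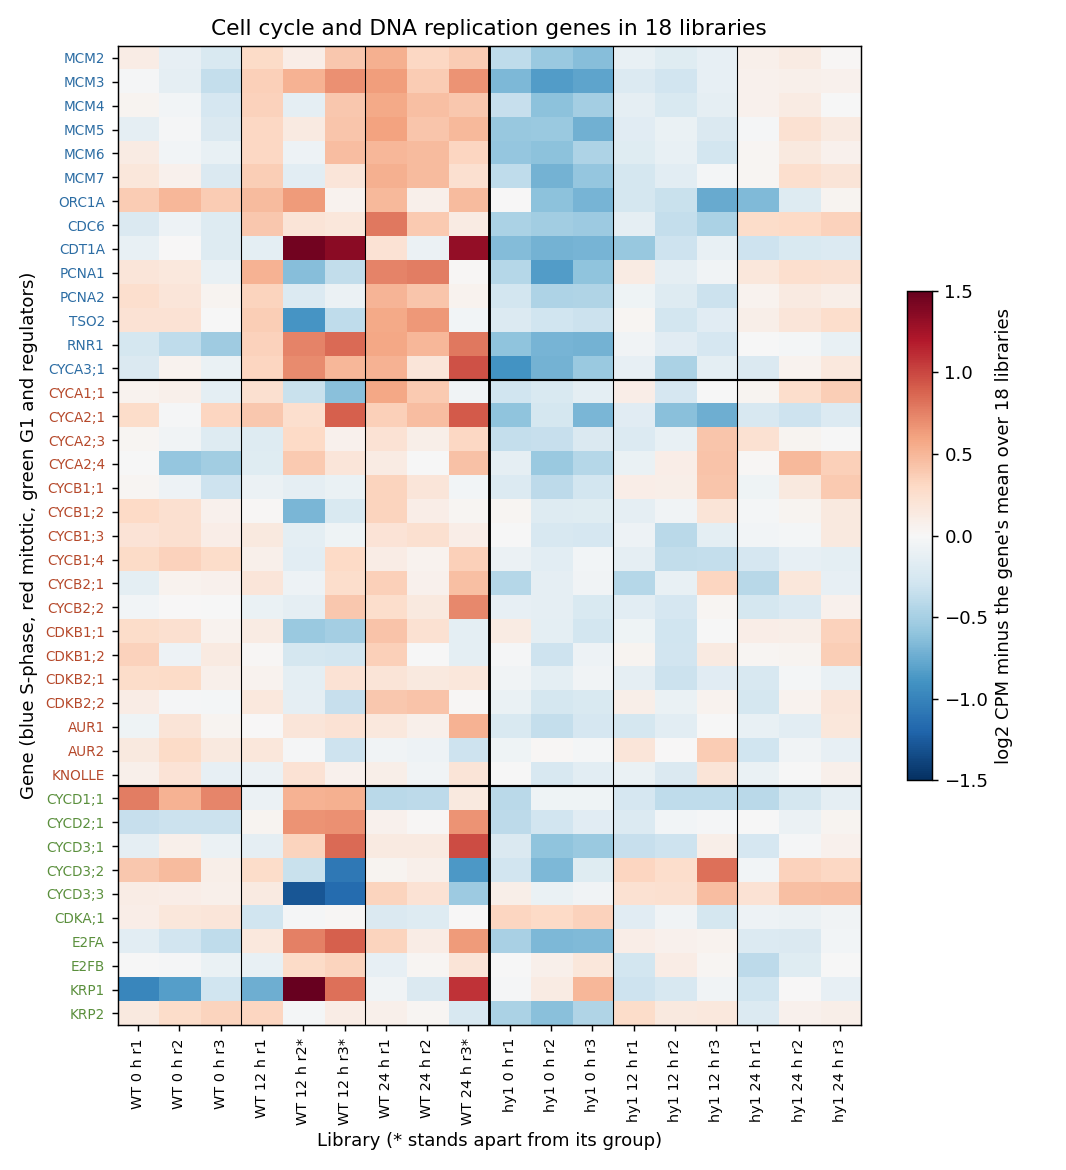
Each row is a gene, each column a library, and colour gives the gene's log2 CPM minus its mean over the 18 libraries, with values beyond the scale in the end colour and an asterisk on the 3 libraries that stood apart. Most of the 14 S-phase rows at the top are blue in the 3 hy1 0 h libraries and red in WT 12 h and 24 h, the 17 mitotic rows in the middle are paler, and CDT1A and KRP1 are darkest in the marked libraries.

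Light in WT was examined by comparing WT at 12 h and at 24 h with WT at 0 h. At 12 h, 14 of the 41 genes were called, 10 up and 4 down, against 53.6% of all genes tested, a larger share than the 41 genes gave. By class, 7 of 14 S-phase genes rose, against 28.3% of all genes tested, 2 of 17 mitotic genes fell, against 25.3%, and 3 of 10 G1 genes and regulators rose while 2 fell. The median log2 change was 0.32 over the S-phase genes and -0.12 over the mitotic genes, beside 0.01 over all genes tested. At 24 h, 17 of 41 were called, 13 up and 4 down, against 47.7% of all genes tested. They were 9 of 14 S-phase genes, all up, against 24.6% of all genes that rose, 2 mitotic genes up (CYCA2;4 and CYCB2;2) and 1 down (AUR2), and 2 regulators up with 3 down. The S-phase median was 0.52, the mitotic median 0.20 and that of all genes 0.02. The 2 comparisons share the WT 0 h libraries.

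Without the 3 libraries that stood apart, 8 S-phase genes rose at 12 h and 12 at 24 h, against 25.2% and 29.6% of all genes in that fit. By edgeR no mitotic gene was then called at 12 h, with 1 at an unadjusted p under 0.05, and at 24 h 3 rose and 1 fell. The falls of mitotic genes at 12 h numbered 5 without WT 12 h replicate 1, and 0 when WT 0 h replicate 1 or WT 12 h replicate 2 was omitted. The rises of mitotic genes at 24 h numbered 0 without any of WT 0 h replicates 2 and 3, WT 24 h replicate 1, hy1 0 h replicates 2 and 3, hy1 12 h replicate 2 and hy1 24 h replicate 2. S-phase rises ranged from 5 to 7 at 12 h and from 8 to 11 at 24 h when any 1 library was left out. Shares of all genes called with 1 library left out are not given, here or below. Rises of regulators at 12 h numbered 5 without WT 12 h replicate 1, and at 24 h 1 when WT 24 h replicate 3 was omitted and 4 with replicate 2 of that group omitted. Their falls at 12 h ranged from 0, in 11 of these 18 fits, to 3, and at 24 h were 1 without WT 0 h replicate 2 or 3 or WT 24 h replicate 2.

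In hy1 the same comparisons gave 11 of 41 genes called at 12 h, 10 up and 1 down, against 44.2% of all genes tested, 22.9% up and 21.3% down. They were 6 S-phase genes, 1 mitotic gene (CYCB1;1) and 3 regulators (CYCD3;2, E2FA and KRP2) that rose, and CDKA;1, which fell. At 24 h, 16 of 41 were called, 15 up and 1 down, against 40.5% of all genes tested, 20.4% up and 20.1% down. Of these 11 were S-phase genes, 2 mitotic genes (CYCA2;4 and CYCB1;1) and 2 regulators (E2FA and KRP2) that rose, and CDKA;1 again fell. Median changes at 12 h were 0.37 over S-phase and 0.12 over mitotic genes, beside 0.01 over all genes, and at 24 h 0.63 and 0.19. When 1 library was left out, S-phase rises ranged from 4 to 8 at 12 h, the lowest without hy1 0 h replicate 2 or 3, and from 11 to 12 at 24 h. Mitotic rises ranged from 0, without hy1 12 h replicate 3, to 3 at 12 h, without WT 12 h replicate 1 or hy1 12 h replicate 1. At 24 h they ranged from 0, without hy1 0 h replicate 2, to 4, without WT 12 h replicate 1. With the 3 libraries left out, 11 S-phase and 3 mitotic genes rose at 12 h and 13 and 5 at 24 h, against 30.8% and 28.3% of all genes in that fit.

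E2FA, MCM2, MCM3, MCM5 and RNR1 rose at 12 h in both genotypes, 5 out of the 10 that rose in each. By 24 h, 11 rose in both, out of 13 in WT and 15 in hy1: MCM2 to MCM7, CDC6, RNR1, CYCA3;1, CYCA2;4 and E2FA. The share of all genes that rose in both genotypes was not counted at either time. Only CDKA;1 fell in both genotypes, at both times, in these fits. Between 12 h and 24 h, edgeR called none of the 41 genes in WT, against 9.08% of all genes tested, with 10 at an unadjusted p under 0.05, 9 of them up. DESeq2 called 1, down, where edgeR called 5.41% of all genes down, and without WT 12 h replicate 1 edgeR called 14. For that last fit the share of all genes called is not given here. In hy1, CDC6 alone rose between these times (0.62 ± 0.16, adjusted p = 0.029), against 4.89% of all genes tested, 2.35% up and 2.54% down, and this call was lost when any hy1 24 h library or replicate 2 or 3 of hy1 12 h was left out (adjusted p = 0.073 to 0.11).

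**Figure D2:**
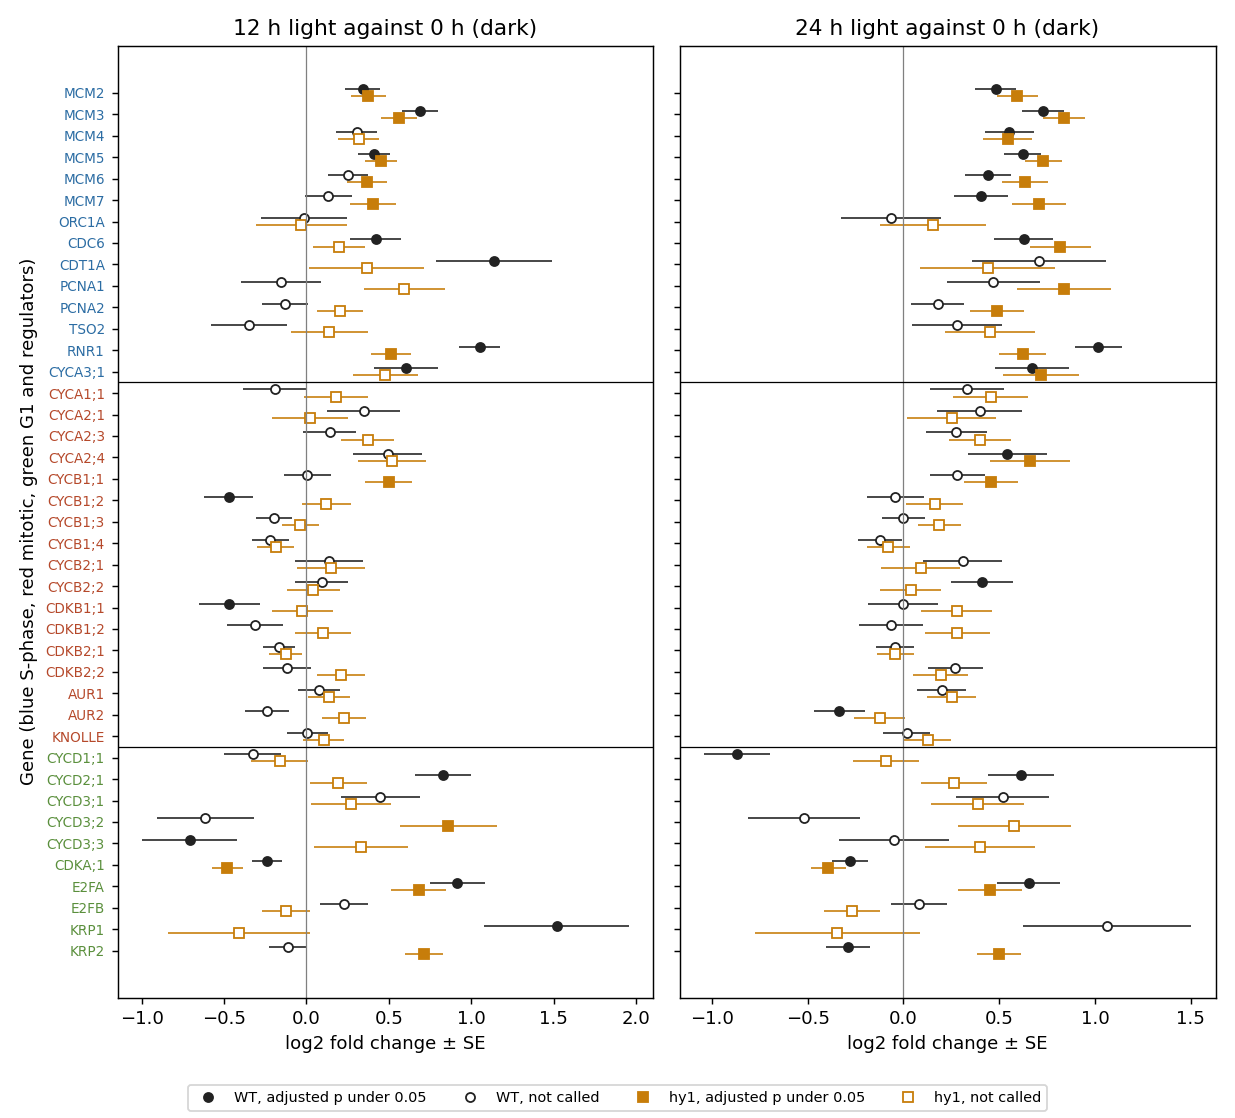
Points are log2 fold changes from 0 h in darkness to 12 h (left) and 24 h (right) of light with bars of 1 standard error, black circles for WT and orange squares for hy1, filled where adjusted p was under 0.05. The upper block of S-phase genes lies mostly right of 0, with medians of 0.52 in WT and 0.63 in hy1 at 24 h, while the mitotic block below it is spread around smaller values (0.20 and 0.19).

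Summing CPM over each class in each library set the S-phase genes against the mitotic genes directly. In WT the S-phase sum was 1.27 to 1.38 times the mitotic sum at 0 h, 1.88 to 2.01 times at 12 h and 1.84 to 1.95 times at 24 h. In hy1 the ratio was 1.14 to 1.18 at 0 h, 1.303 to 1.54 at 12 h and 1.51 to 1.69 at 24 h. Within each genotype every light library lay above every dark library, and at each time every WT library lay above every hy1 library. The S-phase sum itself was 366 to 436 CPM at WT 0 h, 499 to 579.9 at 12 h and 596 to 638 at 24 h, and 285 to 315, 374 to 402 and 441 to 465 CPM in hy1. The mitotic sum moved less, from 288 to 319.7 CPM at WT 0 h to 261 to 289.6 at 12 h and 307 to 332 at 24 h, and from 243 to 267 through 244 to 291 to 260.0 to 300.1 in hy1. Genes with high counts, such as RNR1, weigh most in these sums, and no test was made of a sum over chosen genes.

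**Figure D3:**
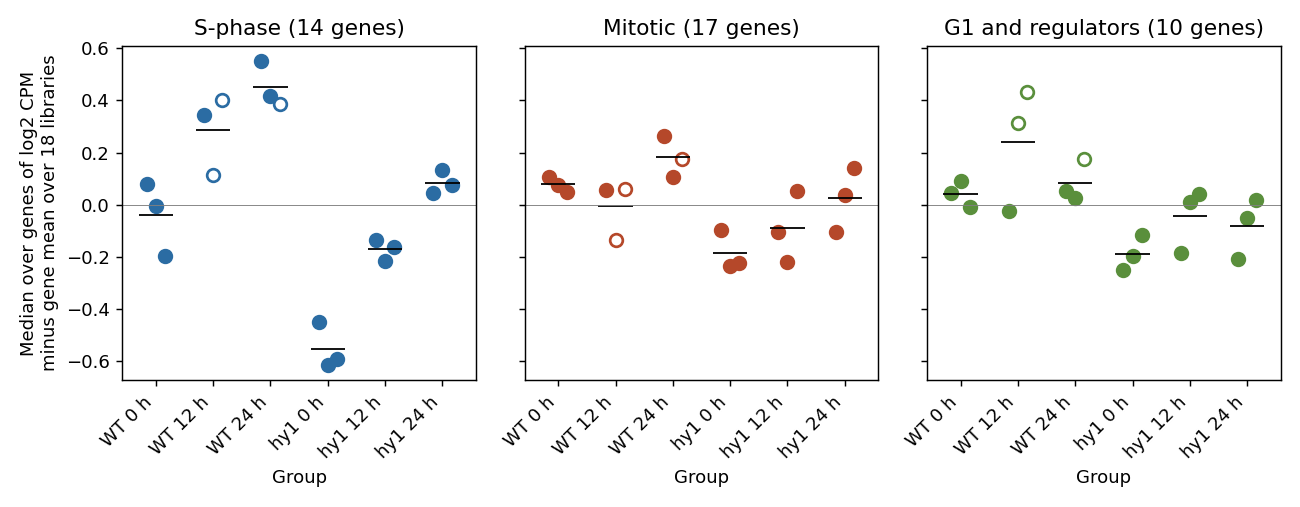
Each point is a library, at the median over the genes of a class of log2 CPM minus the gene's mean over the 18 libraries, bars are group means, and open points are the 3 libraries that stood apart. S-phase medians ran from -0.61 to -0.45 at hy1 0 h and from 0.39 to 0.55 at WT 24 h, a wider span than the mitotic medians, which ran from -0.24 to -0.10 and from 0.11 to 0.26 in the same groups.

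Genotypes were compared at each time. At 0 h, 15 of 41 genes were lower in hy1, against 24.6% of all genes tested that differed and 12.4% that were lower. They were 9 of 14 S-phase genes, 4 of 17 mitotic genes and 2 of 10 regulators, CYCD1;1 and KRP2. The median difference was -0.55 over the S-phase genes, -0.24 over the mitotic genes and -0.22 over the regulators, beside -0.01 over all genes. All 14 S-phase genes had every hy1 0 h library below every WT 0 h library, as did 11 of 17 mitotic genes. The share of all genes tested that did so was not counted. Without the 3 libraries, none of which is a 0 h library, 14 S-phase and 6 mitotic genes were lower, against 23.3% of all genes in that fit. When 1 library was left out the S-phase count ranged from 6, without WT 0 h replicate 2 or hy1 0 h replicate 2, to 12, and the mitotic count from 0, without WT 0 h replicate 1, to 5.

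At 12 h of light 16 of 41 genes differed, 15 of them lower in hy1, against 32.7% of all genes tested that differed and 17.8% that were lower. At 24 h 12 differed, all lower in hy1, against 20.6% that differed and 10.2% that were lower. S-phase genes made up 10 of the 15 at 12 h and 7 of the 12 at 24 h, and mitotic genes 2 and 4. Median differences were -0.44 at 12 h and -0.37 at 24 h over S-phase genes and -0.01 and -0.12 over mitotic genes, beside 0.01 and -0.04 over all genes. With the 3 libraries left out, 11 and 10 S-phase genes and 2 and 5 mitotic genes were lower at 12 h and 24 h, against 10% and 17.9% of all genes in that fit. Of the regulators edgeR then called none at 12 h, with 0 at an unadjusted p under 0.05, where 3 had been lower and 1 higher, and 1 was lower at 24 h. The S-phase count at 24 h was 2 without WT 24 h replicate 1 or hy1 24 h replicate 1, and the mitotic count at 24 h was 0 without WT 24 h replicate 3 or hy1 24 h replicate 2. At 12 h the mitotic count was 1 when replicate 3 of WT 12 h, or replicate 2 or 3 of hy1 12 h, was omitted. Regulators lower at 12 h numbered 3, with 1 without WT 12 h replicate 2 or 3 and 6 without WT 12 h replicate 1. When only the groups compared were fitted, 2 of 41 genes differed at 12 h, MCM3 and RNR1, against 7.45% of all genes. At 24 h 4 then differed, against 14.6%. The share of all genes tested that were lower in hy1 at all 3 times was not counted. Of the 41 genes, 8 were lower at all 3 times, MCM2 to MCM6, CYCA3;1, CYCA2;1 and CYCB1;4. Without the 3 libraries these were 12, MCM2 to MCM7, PCNA1, PCNA2, RNR1, TSO2, CYCA2;1 and CYCB1;4.

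MCM3 (AT5G46280, chromosome 5, 18769649 to 18773706, minus strand) changed most among the helicase genes. In WT it was at 30.1, 27.8 and 23.8 CPM at 0 h, 39.1, 43.7 and 48.9 CPM at 12 h and 47.3, 39.6 and 48.5 CPM at 24 h. The hy1 libraries gave 19.1, 16.999 and 17.6 CPM at 0 h, 26.4, 24.9 and 27.9 CPM at 12 h and 32.0, 32.0 and 31.9 CPM at 24 h. Every light library was above every dark library of its genotype, and every hy1 library was below every WT library of its time. It rose in WT by 0.69 ± 0.11 at 12 h (adjusted p = 8.0e-05) and 0.73 ± 0.11 at 24 h (4.8e-05), and in hy1 by 0.56 ± 0.11 (0.00063) and 0.84 ± 0.11 (1.8e-05). It was lower in hy1 by -0.61 ± 0.11 at 0 h, -0.73 ± 0.11 at 12 h and -0.50 ± 0.11 at 24 h (adjusted p = 0.00095, 0.00026 and 0.0049), and all 7 of these calls remained in every alternative fit run.

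MCM5 (AT2G07690, chromosome 2, 3522984 to 3527500, minus strand) followed the same order of groups. Its WT levels were 30.3, 32.8 and 28.6 CPM at 0 h, 41.3, 36.4 and 44.2 CPM at 12 h and 50.5, 44.3 and 46.5 CPM at 24 h. In hy1 they were 22.4, 22.7 and 20.1 CPM at 0 h, 29.7, 31.0 and 28.6 CPM at 12 h and 32.9, 38.9 and 36.4 CPM at 24 h. No 0 h, 12 h and 24 h groups of a genotype overlapped, and neither did the genotypes at any time. The rise by 24 h was 0.62 ± 0.10 in WT (adjusted p = 7.0e-05) and 0.73 ± 0.10 in hy1 (2.0e-05), and the difference of hy1 from WT was -0.49 ± 0.10 at 0 h (0.0018), -0.45 ± 0.10 at 12 h (0.0034) and -0.39 ± 0.10 at 24 h (0.011). The difference at 24 h lost its call without WT 24 h replicate 1 or hy1 24 h replicate 1 (adjusted p = 0.058 to 0.061). When only the groups compared were fitted, the differences at 12 h (edgeR adjusted p = 0.068) and 24 h also lost their call.

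MCM2 (AT1G44900, chromosome 1, 16970214 to 16974753, plus strand) stood in WT at 33.3, 28.2 and 26.3 CPM at 0 h, 37.6, 32.9 and 40.7 CPM at 12 h and 44.6, 38.0 and 39.9 CPM at 24 h. In hy1 the values were 23.7, 21.0 and 19.8 CPM, then 28.4, 27.1 and 28.2 CPM, then 32.5, 33.6 and 31.3 CPM. Dark and 12 h libraries overlapped in WT and not in hy1, and hy1 was below WT at every time with no overlap. It rose by 0.48 ± 0.11 in WT by 24 h (adjusted p = 0.0016) and by 0.60 ± 0.11 in hy1 (0.00037). The WT rise at 12 h, 0.34 ± 0.11 (adjusted p = 0.015), was lost without WT 0 h replicate 2 or 3 or WT 12 h replicate 3 (0.061 to 0.087), and that of hy1 at 12 h (0.38 ± 0.11, 0.0099) without hy1 0 h replicate 3 (0.057). Against WT, hy1 was at -0.44 ± 0.11 at 0 h (0.0070), -0.41 ± 0.11 at 12 h (0.010), lost without WT 12 h replicate 3 (0.058), and -0.33 ± 0.11 at 24 h (0.040), which was lost in 12 of 18 fits that left out 1 library (0.052 to 0.17).

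MCM4 (AT2G16440, chromosome 2, 7126279 to 7130729, minus strand) gave 32.7, 30.7 and 26.6 CPM at WT 0 h, 40.3, 28.9 and 42.0 CPM at 12 h and 46.9, 43.4 and 41.8 CPM at 24 h. For hy1 the libraries read 25.0, 20.7 and 22.4 CPM at 0 h, 28.8, 27.1 and 29.0 CPM at 12 h and 33.1, 34.5 and 31.7 CPM at 24 h. WT 12 h replicate 2 lay among the dark libraries, and no call was made at 12 h in either genotype (adjusted p = 0.052 and 0.053). By 24 h it rose by 0.55 ± 0.13 in WT (0.0018) and 0.54 ± 0.13 in hy1 (0.0027). The genotype differences, -0.40 ± 0.13, -0.39 ± 0.13 and -0.41 ± 0.13 at 0 h, 12 h and 24 h (adjusted p = 0.030, 0.028 and 0.030), lost their call in 4, 4 and 6 of 18 fits without 1 library (adjusted p of 0.054 to 0.13 over the 3 times).

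For MCM6 (AT5G44635, chromosome 5, 18006212 to 18010667, minus strand) WT levels were 21.9, 19.5 and 18.6 CPM at 0 h, 24.9, 19.0 and 27.7 CPM at 12 h and 28.4, 27.9 and 25.2 CPM at 24 h. In hy1 they were 13.4, 13.1 and 14.5 CPM, then 17.7, 18.6 and 16.6 CPM, then 20.5, 22.2 and 21.0 CPM. The genotypes did not overlap at any time. The gene rose by 24 h in WT (0.44 ± 0.12, adjusted p = 0.0062) and in hy1 (0.63 ± 0.12, 0.00054), and at 12 h in hy1 (0.37 ± 0.12, 0.021), a call lost without hy1 0 h replicate 1 or 2 or hy1 12 h replicate 2 (0.067 to 0.070). Lower values in hy1 were called at 0 h (-0.55 ± 0.12, 0.0036), at 12 h (-0.43 ± 0.12, 0.013), lost without WT 12 h replicate 3 (0.073), and at 24 h (-0.36 ± 0.12, 0.045), lost in 15 of 18 fits without 1 library (0.055 to 0.13). MCM7, the remaining helicase subunit, ran from 20.21 to 47.7 CPM over the 18 libraries and rose by 24 h in both genotypes (0.41 ± 0.14 in WT, adjusted p = 0.026, and 0.71 ± 0.14 in hy1, 0.00083). In WT this was lost without WT 0 h replicate 3 or WT 24 h replicate 1 or 2 (0.065 to 0.13).

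**Figure D4:**
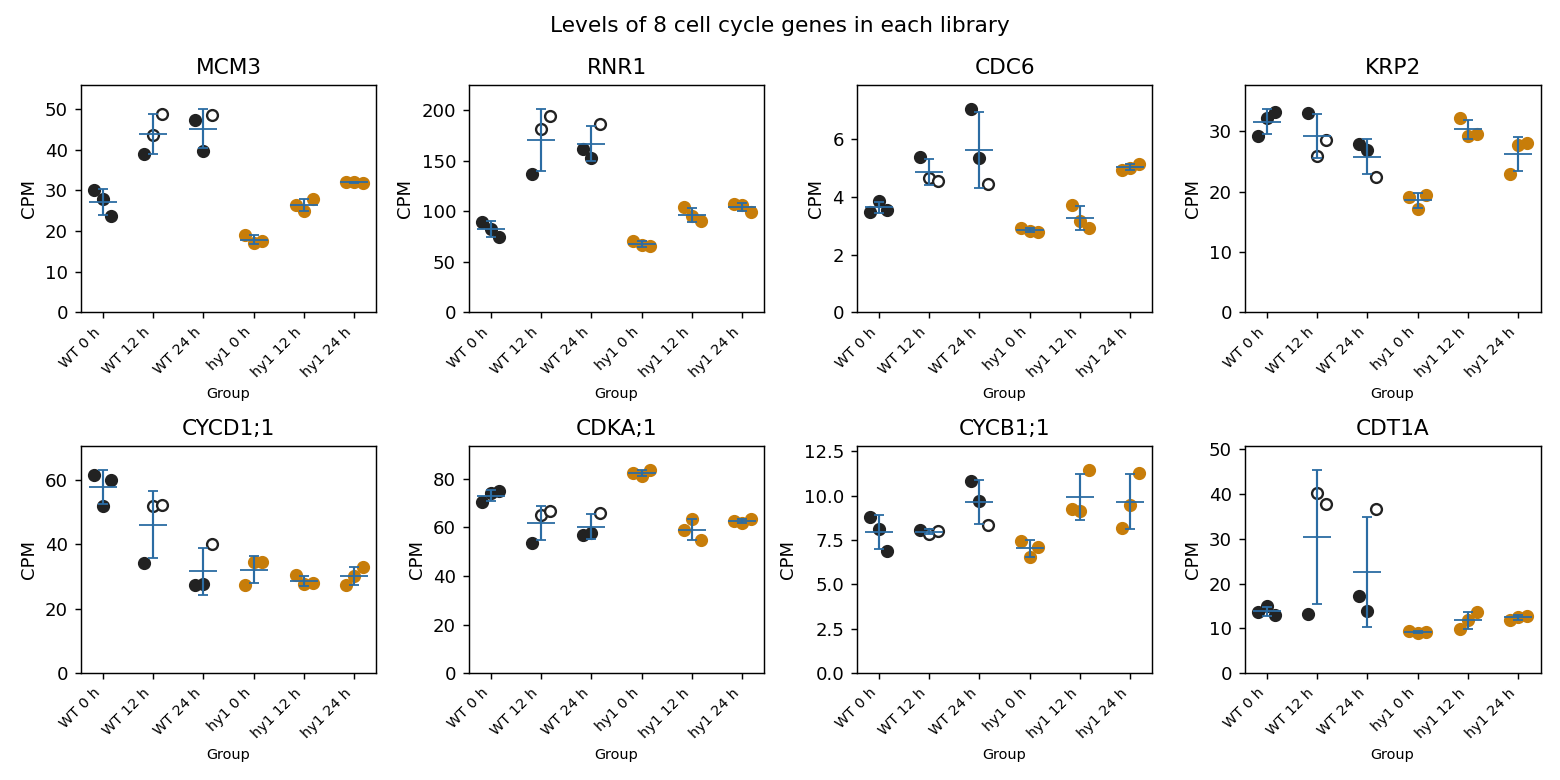
Points are CPM in single libraries, black for WT, orange for hy1 and open for the 3 libraries that stood apart, with group means and bars of 1 SD (n = 3). MCM3 and RNR1 step up from 0 h in both genotypes, KRP2 steps up in hy1 alone, CYCD1;1 is highest at WT 0 h (51.8 to 61.6 CPM), and the open points of CDT1A lie far above the rest of their groups.

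Among the other licensing genes, CDC6 (AT2G29680, chromosome 2, 12689171 to 12693121, plus strand), a loader of the helicase, was at 3.50, 3.87 and 3.56 CPM at WT 0 h, 5.38, 4.66 and 4.57 CPM at 12 h and 7.04, 5.37 and 4.45 CPM at 24 h. In hy1 it was at 2.94, 2.84 and 2.79 CPM at 0 h, 3.71, 3.18 and 2.92 CPM at 12 h and 4.94, 5.02 and 5.16 CPM at 24 h. Light libraries lay above dark ones in each genotype except hy1 at 12 h, where replicate 3 overlapped the dark group. CDC6 rose in WT by 0.42 ± 0.16 at 12 h (adjusted p = 0.033), lost without WT 0 h replicate 1 or 3 or WT 12 h replicate 1 (0.080 to 0.087), and by 0.63 ± 0.16 at 24 h (0.0034). In hy1 it rose by 24 h (0.82 ± 0.16, 0.00059), and it was lower than in WT at 12 h (-0.57 ± 0.16, 0.012). The difference at 12 h lost its call when only the groups compared were fitted (edgeR adjusted p = 0.094).

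CDT1A, a further loader, took its WT rise at 12 h (1.14 ± 0.35, adjusted p = 0.013) from the libraries that stood apart. It was at 13.3 CPM in WT 12 h replicate 1 and at 40.2 and 37.9 CPM in replicates 2 and 3, and at 17.1, 13.9 and 36.8 CPM at WT 24 h, beside 12.9 to 14.9 CPM at WT 0 h and 9.07 to 13.7 CPM in hy1. With the 3 libraries left out, the change at 12 h was -0.056 (adjusted p = 0.80), and without WT 12 h replicate 2 or 3 alone the call was also lost (0.061 to 0.066). The lower level in hy1 at 12 h, -1.36 ± 0.35 (0.0093), was -0.17 without them (0.50). ORC1A, a subunit of the origin recognition complex, ran from 0.519 to 1.37 CPM and was lower in hy1 at 0 h (-0.82 ± 0.27, 0.037) and at 12 h (-0.84 ± 0.27, 0.027), calls lost in 5 and 3 of 18 fits without 1 library (0.056 to 0.13). The difference at 12 h was -0.90 (0.11) without the 3 libraries.

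RNR1 (AT2G21790, chromosome 2, 9293261 to 9297861, plus strand), the large subunit of ribonucleotide reductase, which makes the precursors of DNA, had the largest called WT rise of the S-phase genes at 24 h. Its WT levels were 89.9, 82.7 and 74.4 CPM at 0 h, 136, 181 and 194 CPM at 12 h and 161, 153 and 186 CPM at 24 h. In hy1 they were 71.0, 66.3 and 66.0 CPM, then 104, 95.7 and 90.3 CPM, then 107, 106 and 99.8 CPM. Light libraries lay above dark ones in both genotypes, and hy1 below WT at every time, without overlap. In WT it rose by 1.05 ± 0.12 at 12 h (adjusted p = 3.9e-06) and 1.02 ± 0.12 at 24 h (5.4e-06), and in hy1 by 0.51 ± 0.12 (0.0030) and 0.62 ± 0.12 (0.00076). The interaction of genotype and light was not called, at -0.54 ± 0.17 at 12 h (0.051) and -0.39 ± 0.17 at 24 h (0.20). hy1 was lower at 12 h (-0.82 ± 0.12, 0.00027) and 24 h (-0.68 ± 0.12, 0.0013), with -0.28 ± 0.12 at 0 h (0.11), and the difference at 12 h was -0.50 without the 3 libraries (0.0051).

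TSO2, a small subunit of the same enzyme, was called in no comparison: it was at 71.4 to 83.2 CPM at WT 0 h, and at 92.7, 38.8 and 55.2 CPM in the 3 WT 12 h libraries. The clamp genes PCNA1 and PCNA2, whose product holds DNA polymerase on its template, rose by 24 h in hy1 (0.84 ± 0.25, adjusted p = 0.012, and 0.49 ± 0.14, 0.011). In WT at 24 h they were at 0.47 ± 0.24 (0.13) and 0.18 ± 0.14 (0.31), and no interaction was called. PCNA1, TSO2 and PCNA2 were all lower in WT 12 h replicates 2 and 3 than in replicate 1, by -1.03, -1.002 and -0.48 on the log2 scale. PCNA2 was also lower in hy1 at 0 h (-0.56 ± 0.14, 0.0088), while PCNA1 was at -0.70 ± 0.25 (0.0502) and was not called.

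CYCA3;1 (AT5G43080, chromosome 5, 17292952 to 17295024, plus strand), a cyclin of the S-phase class, was at 3.02, 3.66 and 3.29 CPM at WT 0 h, 4.40, 5.79 and 4.98 CPM at 12 h and 5.07, 4.002 and 6.81 CPM at 24 h. The hy1 levels were 1.89, 2.15 and 2.39 CPM, then 3.24, 2.53 and 3.18 CPM, then 3.02, 3.67 and 3.92 CPM. Neither light and dark nor the genotypes overlapped. It rose by 24 h in WT (0.67 ± 0.19, adjusted p = 0.0090) and hy1 (0.72 ± 0.20, 0.0082), the WT call being lost without WT 24 h replicate 3 (0.074), and at 12 h in WT (0.60 ± 0.19, 0.015), lost without WT 0 h replicate 1 or WT 12 h replicate 2 (0.063 to 0.069). It was lower in hy1 at 0 h (-0.63 ± 0.20, 0.029), 12 h (-0.76 ± 0.19, 0.0086) and 24 h (-0.58 ± 0.19, 0.042). Those at 0 h and 24 h were lost in 4 and 14 of 18 fits without 1 library (0.053 to 0.25), and without the 3 libraries those at 12 h (0.094) and 24 h (0.13) were, as was the WT rise at 12 h (0.41, adjusted p = 0.15).

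Mitotic genes stayed closer to their dark levels. Of the 10 A- and B-type cyclins in this class, CYCA2;1 (AT5G25380, chromosome 5, 8814517 to 8817887, plus strand) showed the largest genotype differences. It was at 2.09, 1.71 and 2.16 CPM at WT 0 h, 2.29, 2.06 and 3.21 CPM at 12 h and 2.22, 2.39 and 3.26 CPM at 24 h, and in hy1 at 1.14, 1.44 and 1.08 CPM, then 1.53, 1.1204 and 1.04 CPM, then 1.46, 1.40 and 1.498 CPM. Genotypes did not overlap at any time. It was lower in hy1 by -0.70 ± 0.23 at 0 h (adjusted p = 0.036), -1.03 ± 0.23 at 12 h (0.0038) and -0.85 ± 0.23 at 24 h (0.015), and no change with light was called in either genotype (adjusted p = 0.15 to 0.96). The call at 0 h was lost in 6 of 18 fits without 1 library (0.050 to 0.13), and that at 24 h without WT 24 h replicate 3 or hy1 24 h replicate 2 (0.064 to 0.089). That at 12 h was lost when only the groups compared were fitted (edgeR adjusted p = 0.070).

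CYCB2;2 (AT4G35620, chromosome 4, 16901596 to 16904001, plus strand) was at 14.3, 14.7 and 14.6 CPM at WT 0 h, 13.7, 13.4 and 19.4 CPM at 12 h and 17.6, 16.2 and 24.1 CPM at 24 h. The mutant had it at 13.4, 13.3 and 12.5 CPM, then 13.1, 12.3 and 14.9 CPM, then 12.2, 12.7 and 15.3 CPM. The WT 24 h libraries lay above both WT 0 h and hy1 24 h, with replicate 3, which stood apart, the highest. Its WT rise at 24 h (0.41 ± 0.16, adjusted p = 0.046) was lost in 13 of 18 fits without 1 library (0.051 to 0.32) and without the 3 libraries (0.085). Its lower level in hy1 at 24 h (-0.53 ± 0.16, 0.030) was lost in 4 (0.051 to 0.20) and was -0.34 without the 3 libraries (0.022).

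Of the other mitotic cyclins, CYCB1;1 rose in hy1 at 12 h (0.50 ± 0.14, adjusted p = 0.0097) and 24 h (0.46 ± 0.14, 0.018), with 0.01 and 0.28 in WT, and no interaction was called. The call at 12 h was lost without hy1 12 h replicate 3 (0.053) and that at 24 h without hy1 0 h replicate 2 or hy1 24 h replicate 3 (0.059 to 0.087). CYCA2;4 rose by 24 h in WT (0.54 ± 0.21, 0.041) and hy1 (0.66 ± 0.21, 0.018), calls lost in 9 and 3 of 18 fits without 1 library (0.052 to 0.18), and that of WT also without the 3 libraries (0.41, 0.097). CYCB1;4 was lower in hy1 at 0 h, 12 h and 24 h (-0.40, -0.36 and -0.35, each ± 0.11; adjusted p = 0.019, 0.024 and 0.039), lost in 4, 3 and 13 such fits (0.053 to 0.21), and CYCB1;3 at 0 h (-0.35 ± 0.11, 0.033), lost in 4 (0.084 to 0.11). CYCB1;2 fell in WT at 12 h (-0.47 ± 0.15, 0.015), lost without WT 0 h replicate 1 or WT 12 h replicate 2 (0.051 to 0.062) and at -0.18 (0.31) without the 3 libraries.

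The B-type kinases, which are specific to plants and act around mitosis, gave few calls. CDKB1;1 fell in WT at 12 h (-0.47 ± 0.18, adjusted p = 0.043), with 13.7 CPM in WT 12 h replicate 1 and 8.52 and 8.86 CPM in replicates 2 and 3, and without the 3 libraries it was at -0.06 (0.79). CDKB2;1 was lower in hy1 at 0 h (-0.30 ± 0.10, 0.036) and 24 h (-0.30 ± 0.10, 0.044), lost in 7 and 15 of 18 fits without 1 library (0.051 to 0.16). The Aurora kinase gene AUR2 fell in WT by 24 h (-0.33 ± 0.13, 0.049), a call lost in 8 such fits (0.052 to 0.13) and without the 3 libraries (0.071). CDKB1;2, CDKB2;2, AUR1, CYCA1;1, CYCA2;3, CYCB2;1 and KNOLLE, which encodes the syntaxin of cell plate formation, were called in none of the 12 comparisons. KNOLLE was at 33.6 to 46.1 CPM over all 18 libraries, and its log2 changes with light ran from 0.00 to 0.13.

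The D-type cyclins, which respond to signals in G1, did not move together. CYCD1;1 (AT1G70210, chromosome 1, 26439556 to 26443007, plus strand) was at 61.6, 51.8 and 60.02 CPM at WT 0 h, 34.1, 52.0 and 52.3 CPM at 12 h and 27.4, 27.6 and 40.1 CPM at 24 h. In hy1 it was at 27.2, 34.5 and 34.6 CPM, then 30.4, 27.8 and 27.9 CPM, then 27.3, 30.1 and 32.9 CPM. WT 24 h lay wholly below WT 0 h, and the hy1 0 h libraries lay below all WT 0 h libraries. It fell in WT by 24 h (-0.87 ± 0.17, adjusted p = 0.00064), with -0.09 ± 0.17 in hy1 (0.71), and the interaction was not called (0.77 ± 0.24, 0.063). This interaction was called by DESeq2, with upper-quartile scaling, with the replicate number as a block and with groups compared alone. Leaving out WT 12 h replicate 1 or WT 24 h replicate 3 also gave the call. CYCD1;1 was lower in hy1 at 0 h (-0.85 ± 0.17, 0.0022) and 12 h (-0.68 ± 0.17, 0.0083), with -0.07 ± 0.17 at 24 h (0.80). Without the 3 libraries the difference at 12 h was -0.25 (0.24).

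CYCD2;1 (AT2G22490, chromosome 2, 9553797 to 9556167, minus strand) ran the other way, at 34.8, 35.3 and 35.4 CPM at WT 0 h, 45.5, 70.6 and 71.4 CPM at 12 h and 46.3, 44.9 and 70.4 CPM at 24 h. The hy1 libraries were at 33.8, 36.2 and 39.4 CPM, then 38.4, 43.0 and 43.8 CPM, then 44.3, 41.7 and 45.4 CPM. The highest 3 values were those of the libraries that stood apart, and the remaining WT light libraries were still above the dark ones. It rose in WT by 0.83 ± 0.17 at 12 h (adjusted p = 0.00081) and 0.61 ± 0.17 at 24 h (0.0075), and by 0.37 and 0.38 without the 3 libraries (0.0055 and 0.00074). The call at 24 h was lost without WT 24 h replicate 3 alone (0.070). The lower level in hy1 at 12 h (-0.58 ± 0.17, 0.018) became -0.13 without the 3 libraries (0.42), and was lost without WT 12 h replicate 2 or 3 or hy1 12 h replicate 1 (0.070 to 0.094).

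CYCD3;2 (AT5G67260, chromosome 5, 26836139 to 26839597, plus strand) was at 23.5, 24.8 and 19.0 CPM at WT 0 h, 21.5, 14.1 and 8.42 CPM at 12 h and 18.3, 18.8 and 9.81 CPM at 24 h. Levels in hy1 were 14.6, 11.1 and 15.7 CPM, then 22.3, 21.3 and 31.6 CPM, then 17.3, 22.7 and 22.0 CPM. Light libraries lay above dark ones in hy1, and in WT the 24 h libraries lay below. It rose in hy1 at 12 h (0.86 ± 0.29, adjusted p = 0.026), lost without hy1 0 h replicate 1 or 2 or hy1 12 h replicate 3 (0.056 to 0.11), with -0.61 ± 0.29 in WT (0.090), and the interaction was called (1.47 ± 0.42, 0.030). With the 3 libraries left out, the interaction was 0.92 (0.047), and it was lost in 7 of 18 fits without 1 library (0.050 to 0.077). CYCD3;3 fell in WT at 12 h (-0.71 ± 0.29, 0.0498), lost in 15 of 18 fits without 1 library (0.052 to 0.18), with 14.8 CPM in replicate 1 and 5.52 and 6.03 CPM in replicates 2 and 3, and was at 0.042 without the 3 libraries (0.82). Its higher level in hy1 at 12 h (0.93 ± 0.29, 0.024) became 0.18 (0.38). CYCD3;1 was called in none.

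CDKA;1 (AT3G48750, chromosome 3, 18071454 to 18074641, plus strand), the kinase that works throughout the cycle, was at 70.5, 74.1 and 74.9 CPM at WT 0 h, 53.7, 65.3 and 66.7 CPM at 12 h and 56.8, 57.8 and 66.1 CPM at 24 h. In hy1 it was at 82.2, 81.0 and 83.6 CPM, then 58.8, 63.4 and 54.9 CPM, then 62.7, 61.8 and 63.6 CPM. All light libraries lay below all dark ones of their genotype. It fell in WT by 0.24 ± 0.09 at 12 h (adjusted p = 0.039) and 0.28 ± 0.09 at 24 h (0.021), and in hy1 by 0.48 ± 0.09 (0.00056) and 0.39 ± 0.09 (0.0031). The WT calls were lost in 13 and 4 of 18 fits without 1 library (0.050 to 0.18), the hy1 calls in none of them, and without the 3 libraries the WT changes were -0.44 and -0.35 (0.00071 and 0.00044).

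E2FA (AT2G36010, chromosome 2, 15119516 to 15123184, plus strand), a factor that activates replication genes, was at 10.1, 9.21 and 8.65 CPM at WT 0 h, 12.6, 19.0 and 21.0 CPM at 12 h and 14.2, 12.1 and 17.6 CPM at 24 h. hy1 libraries gave 8.02, 7.08 and 7.10 CPM, then 12.1, 11.8 and 11.7 CPM, then 9.76, 9.70 and 10.9 CPM. Light lay above dark in both genotypes, and hy1 below WT at each time, with no overlap. The rises were 0.92 ± 0.17 at 12 h and 0.65 ± 0.16 at 24 h in WT (adjusted p = 0.00025 and 0.0039) and 0.68 ± 0.17 and 0.45 ± 0.17 in hy1 (0.0034 and 0.040), the last lost in 10 of 18 fits without 1 library (0.051 to 0.12). Without the 3 libraries the WT rises were 0.44 (0.012) and 0.50 (0.00069). Its lower levels in hy1 at 12 h (-0.57 ± 0.16, 0.016) and 24 h (-0.53 ± 0.16, 0.032) were lost in 4 and 13 such fits (0.051 to 0.18), and that at 12 h was -0.09 without the 3 libraries (0.69). E2FB, its relative, was called in none.

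KRP2 (AT3G50630, chromosome 3, 18800306 to 18801595, plus strand), an inhibitor of cyclin-dependent kinases, was at 29.3, 32.2 and 33.3 CPM at WT 0 h, 33.1, 26.0 and 28.6 CPM at 12 h and 28.0, 27.0 and 22.5 CPM at 24 h. In hy1 it was at 19.1, 17.2 and 19.4 CPM, then 32.2, 29.3 and 29.6 CPM, then 23.0, 27.7 and 28.1 CPM. The hy1 dark libraries were the lowest of the 18, and hy1 and WT overlapped in light. The mutant had less KRP2 in the dark (-0.77 ± 0.12, adjusted p = 0.00023), with 0.06 ± 0.11 at 12 h (0.73) and 0.02 ± 0.11 at 24 h (0.91). It rose in hy1 by 0.71 ± 0.12 at 12 h (0.00012) and 0.50 ± 0.12 at 24 h (0.0025), while in WT it was at -0.11 ± 0.11 at 12 h (0.43) and fell by 0.29 ± 0.11 at 24 h (0.048), the fall being lost in 6 of 18 fits without 1 library (0.058 to 0.13) and without the 3 libraries (0.085). The interaction was 0.82 ± 0.16 at 12 h (0.0046) and 0.79 ± 0.16 at 24 h (0.0058). These comparisons share the hy1 0 h libraries, and both interactions remained called in every alternative fit run.

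KRP1 (AT2G23430, chromosome 2, 9976590 to 9978090, minus strand), another inhibitor, was at 2.33, 2.59 and 3.76 CPM at WT 0 h, 2.76, 14.0 and 8.16 CPM at 12 h and 4.46, 3.95 and 9.77 CPM at 24 h. The mutant libraries read 4.54, 5.02 and 6.49 CPM, then 3.73, 3.899 and 4.46 CPM, then 3.75, 4.64 and 4.24 CPM. The 3 highest of the 18 values were those of the libraries that stood apart. Its WT rise at 12 h (1.52 ± 0.44, adjusted p = 0.0088) became -0.069 without them (0.86) and was lost without WT 12 h replicate 2 (0.080). The interaction at 12 h (-1.93 ± 0.61, 0.049) became -0.34 (0.56) and was lost in 15 of 18 fits without 1 library (0.056 to 0.15).

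With CYCD3;2, KRP1 and KRP2, 3 of 41 genes were called in the genotype by light interaction at 12 h, against 13.5% of all genes tested, 6.73% higher and 6.8% lower, and with KRP2 1 of 41 at 24 h, against 8.67%, 5.18% higher and 3.49% lower. For the change from 12 h to 24 h edgeR called none of the 41 genes by genotype, against 0.539%, with 1 at an unadjusted p under 0.05 and none by DESeq2. In this edgeR fit no S-phase or mitotic gene was called in an interaction, with RNR1 at 0.051 at 12 h. RNR1 was called at 12 h by DESeq2, with DESeq2's size factors, with a stricter filter, and without WT 24 h replicate 2 or 3. Without WT 12 h replicate 1, which leaves the 2 WT 12 h libraries that stood apart, 15 of 41 genes were called at 12 h, among them 3 S-phase genes with a positive and 2 with a negative interaction and 4 mitotic genes, all positive. For that fit the share of all genes called is not given here, so the rise cannot be read as particular to these genes. A p above the threshold does not show that the genotypes responded alike. Medians of the interaction at 24 h without the 3 libraries were 0.15 over S-phase and 0.14 over mitotic genes, beside -0.01 over all genes.

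How the 41 genes moved in the libraries that stood apart was read within groups, with genes outside the rule for full values chosen after their values were seen. At 12 h, 5 genes differed by over 1 on the log2 scale between replicates 2 and 3 and replicate 1: KRP1 (1.95) and CDT1A (1.55) higher, and CYCD3;3 (-1.36), PCNA1 (-1.03) and TSO2 (-1.002) lower. At 24 h, KRP1 (1.22) and CDT1A (1.25) were higher by over 1 in replicate 3. No mitotic gene differed by that much at either time, the range being -0.72 to 0.46 at 12 h. How many of all genes tested differed by that much was not counted. Summed CPM of 4 shoot meristem markers moved with these libraries, mostly through KNAT1. The sum was 203 to 477 over WT 12 h and 181 to 344 over WT 24 h, beside 162 to 185 at WT 0 h. STM, another of the 4, went the other way. It was at 4.34 to 10.2 CPM over WT 12 h and 3.05 to 8.63 over WT 24 h, beside 18.5 to 27.4 at WT 0 h. The part of other cell types in the results was not tested.

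**Figure D5:**
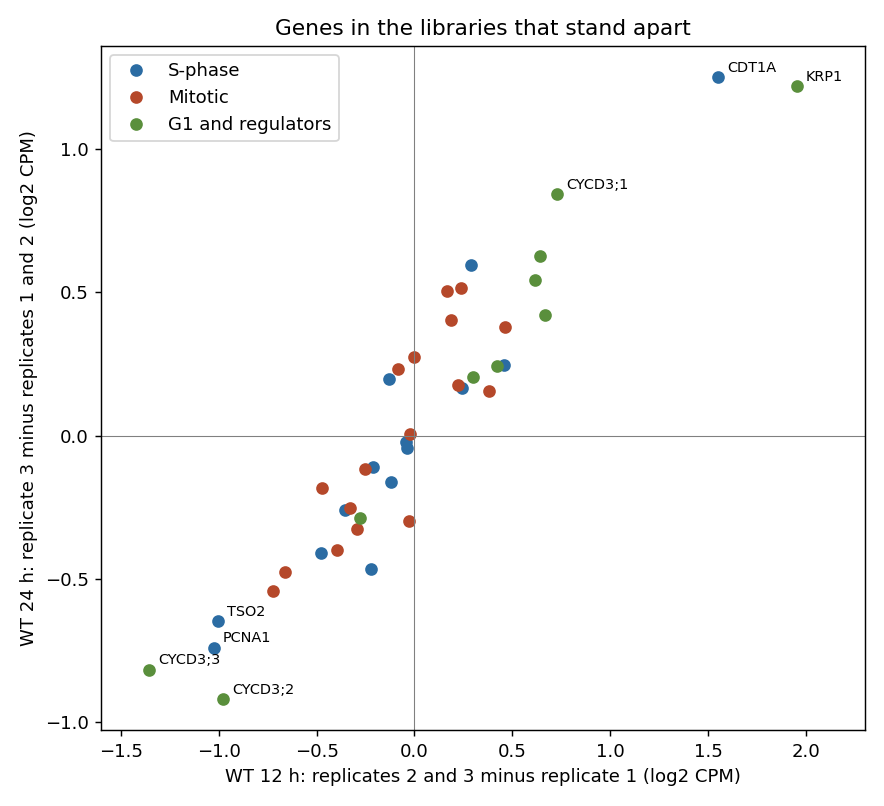
Each point is a gene, with its log2 CPM in WT 12 h replicates 2 and 3 minus replicate 1 on the x axis and in WT 24 h replicate 3 minus replicates 1 and 2 on the y axis. CDT1A and KRP1 lie far up and right, CYCD3;3, CYCD3;2, PCNA1 and TSO2 lie down and left, and the mitotic genes stay between -0.72 and 0.51 on both axes.

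A wider list of 63 tested cell cycle genes was read in the same way. Of 23 further S-phase genes 14 rose by 24 h in WT and 15 in hy1, and of 20 further mitotic genes 2 and 3 rose, against 24.6% and 20.4% of all genes. At 12 h 12 S-phase and 7 mitotic genes rose in WT, against 28.3%, and 5 and 3 in hy1, against 22.9%. LIG1, the ligase that joins replicated fragments (0.69 ± 0.09, adjusted p = 6.6e-06), RNR2A, a small subunit of ribonucleotide reductase (1.13 ± 0.16, 2.5e-05), and RPA70D (0.63 ± 0.09, 1.9e-05) and RPA70B (0.63 ± 0.10, 6.4e-05), which bind single-stranded DNA, had the smallest adjusted p in WT at 24 h. In hy1 at 24 h it was smallest for MCM10, a replication initiation factor (1.04 ± 0.13, 1.0e-05). MCM10 was also lower in hy1 at 0 h (-0.91 ± 0.13, 0.00016), 12 h (-0.93 ± 0.13, 0.00013) and 24 h (-0.61 ± 0.13, 0.0032), as was RPA70D (-0.51, -0.67 and -0.51). Of the 63 genes 11 were lower in hy1 at 0 h, 26 at 12 h and 13 at 24 h, against 12.4%, 17.8% and 10.2% of all genes. S-phase genes made up 9, 11 and 9 of these and mitotic genes 0, 7 and 1.

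HY1 itself was present in every hy1 library, at 18.4 to 36.3 CPM beside 23.4 to 47.9 CPM in WT. The mutant had less of it at 0 h (-0.39 ± 0.13, adjusted p = 0.041) and 24 h (-1.05 ± 0.13, 6.6e-05), with -0.34 ± 0.13 at 12 h (0.060). Marker lists were read for cells of other types that divide. Summed CPM of 7 stomatal lineage markers was 4.09 to 7.85 at WT 0 h, 4.59 to 16.2 at 12 h and 4.17 to 7.70 at 24 h. In hy1 it was 1.36 to 2.296, 13.5 to 23.3 and 5.10 to 10.3, lowest at 0 h. Its members did not move together. FAMA was at 0.757 to 0.807 CPM in hy1 12 h and 2.27 to 3.32 in WT 12 h. TMM was at 5.75 to 11.2 CPM in hy1 12 h and 0.288 to 1.83 in WT 12 h. Summed shoot meristem markers were also lowest in hy1 0 h, at 125 to 131 CPM. They were at 179 to 208 at 12 h and 159 to 169 at 24 h in hy1. Most of this sum was KNAT1, at 110 to 115 CPM in hy1 0 h. STM was at 13.9 to 15.9 CPM in hy1 0 h. It was lower in WT 12 h and WT 24 h, at 4.34 to 10.2 and 3.05 to 8.63 CPM. The 4 root meristem markers were higher in hy1 0 h, at 3.69 to 4.73 CPM, than in WT 0 h, at 0.761 to 1.13 CPM. At hy1 24 h they were at 4.17 to 6.98 CPM. The sum of 6 root primordium markers ran from 13.5 to 27.4 CPM over all libraries, and that of 3 root hair markers from 0 to 0.522 CPM. Root primordium markers moved in opposite directions within that sum. From WT 0 h to WT 12 h, LBD16 went from 11.9 to 13.7 CPM to 6.72 to 10.7. WOX11 went from 0.0476 to 0.289 CPM to 2.38 to 2.41, and PUCHI from 0.475 to 0.904 to 1.64 to 10.2. CLV3 was at 0 in hy1 0 h, WUS in WT 24 h and RGF1 in WT 0 h. The part of these cells in the values of the 41 genes was not tested.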

How the data were processed

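RNA was extracted with TRIzol and sequenced from TruSeq poly-A libraries, per the labels' protocols. The authors deposited whole-number counts of reads per gene, which the file headers credit to featureCounts 2.0.3, and STAR 2.7.8a, StringTie 2.1.3 and HTSeq are listed in the submitters' processing notes with no role. Of counts from 1 to 10, 73.2% to 78.4% were even, the pattern left when both mates of a pair are counted. If both mates were counted, the totals of 38469946 to 59905064 per library exceed the number of separate fragments. The 18 libraries were fitted together in edgeR 4.0.16 (R 4.3.3, limma 3.58.1): 6 group means, TMM scaling, filterByExpr, quasi-likelihood tests of 12 comparisons and Benjamini-Hochberg adjustment over 20955 genes, called at adjusted p under 0.05. The fit was tested on simulated data. Alternatives were other scalings and filters, a replicate block, groups compared alone, DESeq2 1.42.0, a threshold of 0.01 and leaving out each library. Leaving out the 3 libraries that stood apart was chosen after seeing the data. The members and lists were chosen with earlier results of these data known. Values in every library are given for 17 genes: those called that were among the 6 smallest adjusted p of a comparison, or called in an interaction. From the wider list up to 4 genes per comparison could be named.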

Additional observations from a re-analysis of the deposited data

Results flagged for a closer look

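For 3 genes the test of the difference itself, in the edgeR fit described above, found the change with light to differ between hy1 and WT. KRP2 gave an interaction of 0.82 on the log2 scale at 12 h and 0.79 at 24 h, rising in hy1 at both times from the lowest dark level of the 18 libraries. CYCD3;2 gave 1.47 at 12 h, and 0.92 (adjusted p = 0.047, edgeR) without the 3 WT libraries that stood apart, and this call was lost in 7 of 18 fits that left out 1 library. KRP1 gave -1.93 at 12 h, and -0.34 (adjusted p = 0.56, edgeR) without the 3 WT libraries that stood apart.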

How the results depend on the processing

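Of 106 calls of a gene in a comparison, 53 remained when any 1 library was left out, 49 under the 9 other settings and 45 under all. Upper-quartile scaling gave 6 genes called between genotypes at 24 h, against 20% of all genes. It gave 2 in the interaction at 24 h, against 8.78%. No filter gave 7 between genotypes at 24 h, against 14.6%. At adjusted p under 0.01 the counts were 6 (WT 12 h against 0 h, 39.6% of all genes) and 11 (WT 24 h, 35.5%). For hy1 24 h against 12 h the count was 0 (2.25%). Between genotypes at 0 h, 12 h and 24 h the counts were 8, 7 and 2 (13.8%, 15.6% and 9.66%). In the interaction at 12 h the count was 1 (4.47%). With groups compared alone the counts were 6 (WT 12 h), 17 and 25 (hy1 12 h and 24 h), 8 (hy1 24 h against 12 h), 26, 2 and 4 (genotypes) and 3 (interaction at 24 h), where the share of all genes called was 39.1%, 57.9%, 58.4%, 15.5%, 45.6%, 7.45%, 14.6% and 11.3%. DESeq2 gave 1 (WT 24 h against 12 h), 2 (hy1 24 h against 12 h) and 2 (interaction at 24 h). Its shares of all genes called were 13.4%, 8.19% and 11.4%. Without the 3 libraries the counts were 21 and 25 (hy1 12 h and 24 h), 6 (hy1 24 h against 12 h), 27 (genotypes at 0 h) and 4 (interaction at 24 h), against 60.2%, 57%, 16.2%, 45.2% and 16.5% of all genes, and 3 WT changes at 12 h turned sign: CDT1A to -0.056, KRP1 to -0.069 and CYCD3;3 to 0.042. The causes were not tested. Leaving out 1 library gave 10 to 22 (WT 12 h), 11 to 20 (WT 24 h), 0 to 14 (WT 24 h against 12 h), 8 to 15 (hy1 12 h), 13 to 20 (hy1 24 h), 0 to 1 (hy1 24 h against 12 h), 9 to 21, 9 to 27 and 3 to 13 (genotypes), and 1 to 15, 1 to 4 and 0 to 2 (interactions at 12 h, 24 h and 24 h against 12 h). In every comparison but hy1 24 h against 12 h, the highest count came without WT 12 h replicate 1. Shares of all genes called in these fits are not given here.

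With the replicate number as a block, 1 gene was called in WT 24 h against 12 h, against 9.05% of all genes. In the interaction at 24 h 2 were called, against 8.5%. Of the 106 calls, 5 were lost: CYCA2;4, AUR2 and KRP2 in WT at 24 h (edgeR adjusted p = 0.056, 0.060 and 0.060) and MCM6 and CDKB2;1 between genotypes at 24 h (0.057 and 0.054). Deviations of same-numbered libraries correlated at a median r of 0.021 (-0.244 to 0.533), with 6 of 45 pairs over 0.1. For libraries with different numbers the median was -0.006 (-0.689 to 0.466), with 5 of 90 pairs over 0.1. Whether the numbers pair the libraries was not tested.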
